A study of Rattus norvegicus with 24 samples.

Results

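Mitochondrial respiratory chain genes were followed across rat neural stem cells and their differentiated progeny grown without or with vitamin C. The members were all symbols of the deposited expression table that name nuclear-encoded subunits of complexes I to V by their family prefix (Nduf with a, b, c, s or v and a number, Sdha to Sdhd, Uqcr, Cyc1, Cox4 to Cox8, and Atp5), leaving out Ndufa4l2. The rule found 76 of the 12187 genes listed. They comprised 32 genes of complex I, 4 of complex II, 9 of complex III, 11 of complex IV and 15 of complex V. The other 5 match the prefixes but encode no subunit: Sdhaf2 and Sdhaf3 are assembly factors of complex II, Cox7a2l takes part in supercomplex assembly, and Atp5s and Atp5sl are related in name to complex V. All 76 passed the filter on low values and were tested.

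Sprague-Dawley cells of 3 groups were sequenced as total RNA, with 2 libraries a group. The group called D0 is neural stem cells, VC- is differentiated neural stem cells without vitamin C, and VC+ is differentiated neural stem cells with vitamin C. The column names carry D4 for both differentiated libraries of replicate 1 and D5 for both of replicate 2. The labels used here give no dose, age of the animals or promoter-driven transgene, and do not say whether replicates are separate cultures. So p-values measure only the spread between these libraries. How far that spread is technical is not known, and cell type markers differed widely between the replicates, as given below.

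The respiratory chain sits in the inner mitochondrial membrane. Complex I oxidises NADH and complex II oxidises succinate, and both pass electrons to coenzyme Q. Complex III moves them on to cytochrome c, complex IV gives them to oxygen, and complex V uses the proton gradient so built to make ATP. Neural stem cells are known to rely strongly on glycolysis, and their neuronal progeny on oxidative phosphorylation. Vitamin C supports the enzymes that hydroxylate HIF-1 alpha and so target it for breakdown, and HIF-1 is known to steer pyruvate away from mitochondria.

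Coverage of the complexes was uneven. Complexes II, III and V were complete against the lists used (4 of 4, 9 of 9 and 15 of 15 subunits). For complex I, 33 of 37 subunits were listed, of which Ndufab1, the acyl carrier protein, falls outside the name rule. For complex IV, 11 of 18 genes of the list, which includes tissue isoforms and Ndufa4, were present. Cox6b1 was not among those present, while its isoform Cox6b2 was. No mitochondrially encoded gene of the list was found in the table by name, so the subunits made inside the organelle were not analysed here.

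Levels are in CPM (a gene's reads relative to the library's total, as the authors scaled it), always in the order D0, VC-, VC+ of replicate 1 and then of replicate 2. Reads over all genes listed ranged from 4811094 to 6641721 in replicate 1 and from 10299321 to 13184601 in replicate 2. Differences are log2 values of CPM + 0.5 with the standard error (SE) of a limma fit over all genes and p-values adjusted by the Benjamini-Hochberg method. In bulk RNA such as this, fewer cells of a type and less RNA per cell cannot be told apart. All 9 neural stem cell markers listed were detected in every library. Their median difference was -0.29 for VC- against D0 and -0.50 for VC+ against D0, where the values ran from -2.24 (Prom1) to 0.15 (Sox2).

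Many promoters of respiratory chain genes are known to carry sites for NRF1, for ETS factors such as GABPA, and for YY1. Their letters were searched for in the members' promoters because the members' levels are described as a group. RefSeq promoter windows (GRCr8 build, 250 bases before to 50 after the start) were found for 66 of the 76 members. The letters GCGCANGC (NRF1) were present on either strand in 23 of 66 members (34.8%), against 18.3% of the 9691 windows of genes in the expression table and 8.98% of all 33469 windows. CCGGAAG (ETS) was present in 21 of 66 (31.8%), against 16.3% of genes in the table and 8.75% of all windows. AAGATGGC (YY1) was present in 14 of 66 (21.2%), against 5.15% and 3.17%. GGGCGG (SP1) was present in 28 of 66 (42.4%), below the 61.6% of genes in the table and above the 33.1% of all windows. At least one of the NRF1, ETS and YY1 strings was present in 44 of 66, so no string was common to the members. The NRF1 string was in 12 of 29 windows of complex I and in 0 of 9 of complex IV, while the ETS string was in 6 of 29 and 4 of 9. A match describes letters only and is no evidence of binding, and the 4 strings do not contain one another.

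Below are the 120 bases before the start site of 5 members described later, 5′ to 3′ on the gene's strand, with the matches to 1 string of the 4 in capitals (NRF1 for Sdha, Ndufb4 and Atp5i, ETS for Ndufb7 and Atp5a1; a match can lie on the opposite strand). Sdha lies at chr1:30764433-30764552 (+), Ndufb4 at chr11:76569058-76569177 (+), Atp5i (Atp5me in RefSeq) at chr14:1464740-1464859 (+), Ndufb7 at chr19:41477292-41477411 (-) and Atp5a1 (Atp5f1a in RefSeq) at chr18:73567417-73567536 (+).
Sdha: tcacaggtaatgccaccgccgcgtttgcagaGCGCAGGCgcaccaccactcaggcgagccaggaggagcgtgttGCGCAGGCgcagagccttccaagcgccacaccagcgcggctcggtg
Ndufb4: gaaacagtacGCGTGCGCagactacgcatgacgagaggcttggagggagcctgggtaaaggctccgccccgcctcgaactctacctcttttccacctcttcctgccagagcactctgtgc
Atp5i: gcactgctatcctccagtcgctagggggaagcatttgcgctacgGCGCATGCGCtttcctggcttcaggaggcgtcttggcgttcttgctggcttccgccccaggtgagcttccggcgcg
Ndufb7: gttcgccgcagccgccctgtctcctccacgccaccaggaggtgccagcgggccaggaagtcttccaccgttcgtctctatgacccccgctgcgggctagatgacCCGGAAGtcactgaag
Atp5a1: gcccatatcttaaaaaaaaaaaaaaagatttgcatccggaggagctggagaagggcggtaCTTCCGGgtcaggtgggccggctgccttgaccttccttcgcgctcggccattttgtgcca

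The first question was how the chain differs between differentiated cells with and without vitamin C. No call was made for a member: 0 of 76 passed an adjusted p of 0.05 in limma, which called 0.0% of the 11823 genes tested (unadjusted p under 0.05 for 0 members and 62 genes). In the fit of DESeq2 with a replicate term, 0 of 76 passed, against 0.263% of genes (32). With so few calls over all genes, these counts do not set the members apart and do not show that they were unchanged. The members' median log2 difference was -0.08 (all genes 0.02), and the range ran from -0.42 (Ndufb7) to 0.24 (Ndufa12). No member differed by more than 0.5 on the log2 scale in either direction, against 14.4% of all genes tested. The same held for the 32 assembly factors, 67 mitochondrial ribosomal proteins, 18 import genes and 11 coenzyme Q genes described below. In other lists it was 1 of 18 citric acid cycle genes, 2 of 16 biogenesis regulators, 2 of 8 mobile carriers and donors, and 5 of 11 HIF-linked genes. The members' median half-width of the 95% interval was 0.68 without a replicate term and 0.50 with one (all genes 1.12 and 0.70). So differences of that size in a single member would not be resolved here.

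The sign of the member median depended on the replicate. In replicate 1, 65 of 76 members were lower with vitamin C and the median difference was -0.22. In replicate 2, 31 of 76 were lower and the median was 0.05. Both replicates were lower for 25 members, where 26.4% of all genes were lower in both, and both were higher for 5, where the background was 30.0%. Groups did not overlap for 10 members lower with vitamin C (7.82% of all genes) and for 1 higher (8.15%), which was Atp5sl, named after its values were seen. The 10 were Ndufa1, Ndufa11, Ndufb6, Ndufb7, Ndufc2, Ndufv3, Uqcr11, Uqcrh, Atp5j and Cox7a2l.

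**Figure D1:**
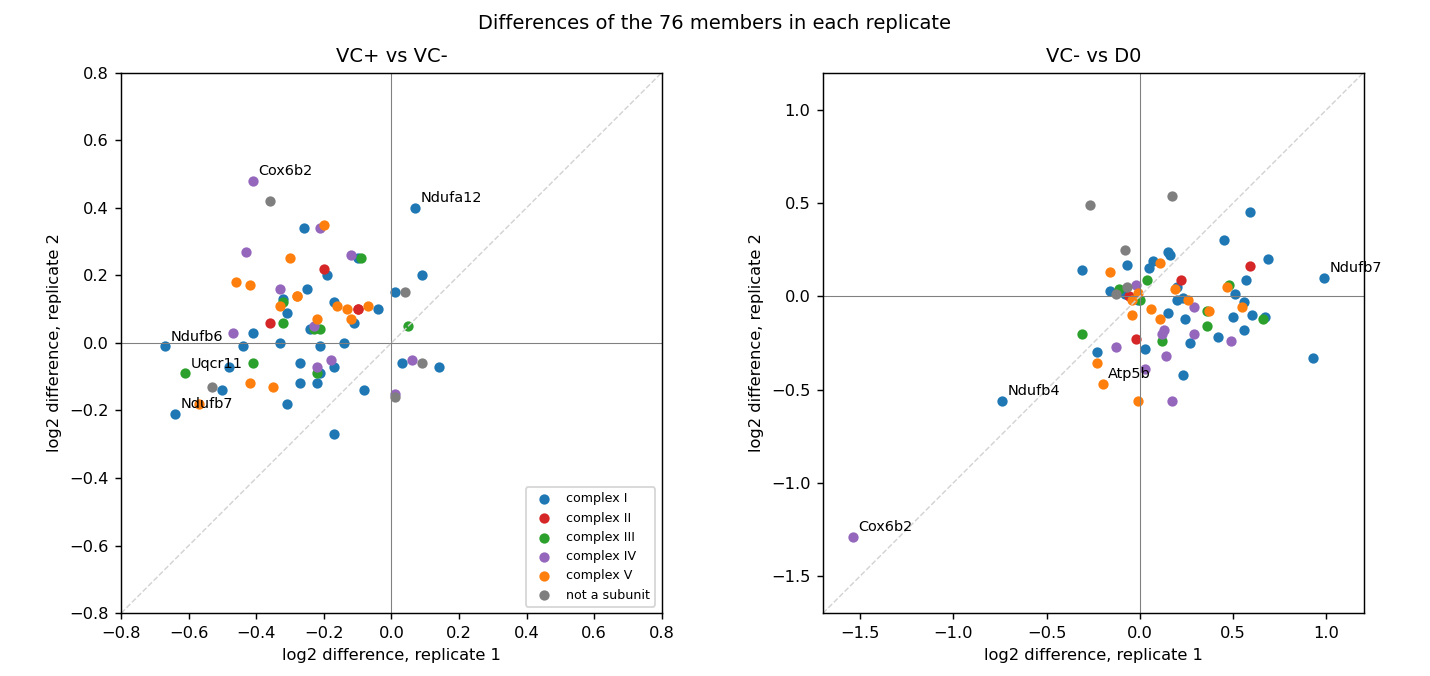
Log2 difference of each of the 76 members in replicate 1 (x axis) and replicate 2 (y axis), for VC+ against VC- (left) and VC- against D0 (right), coloured by complex, with the diagonal dashed. On the left, 65 of 76 points lie left of 0 and 31 lie below 0. On the right, Cox6b2 and Ndufb4 stand apart at the lower left.

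Within complex I, the NADH-oxidising entry of the chain, the median difference with vitamin C was -0.11, at -0.22 in replicate 1 and 0.00 in replicate 2. The 7 catalytic core subunits, which hold the flavin and iron-sulfur clusters, and the 25 accessory subunits, which surround them, had medians of -0.05 and -0.12. None of the 7 core subunits was lower in both replicates, and 16 of the 25 accessory ones were (26.4% of all genes). In replicate 1 the core and accessory medians were alike, at -0.24 and -0.21. In replicate 2 they were 0.13 and -0.01. Some of the 16 were barely lower in replicate 2, such as Ndufa2 and Ndufb10, each with a ratio of VC+ to VC- of 0.999. These counts are descriptions, and the difference between core and accessory subunits was not tested.

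Ndufb7, an accessory subunit of the membrane arm, had the lowest value of all members: 30.3, 60.6 and 38.8 CPM in replicate 1 and 40.9, 43.9 and 37.9 CPM in replicate 2. The VC- library of replicate 1 stood highest, with the other 5 between 30.3 and 43.9 CPM, and the VC+ values lay below both VC- values. The difference was -0.42 (SE 0.28, n = 2 a group, limma adjusted p 1.0), with a 95% interval from -1.13 to 0.29. With the replicate term the interval ran from -1.08 to 0.23.

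Other accessory subunits had a like profile. Ndufb6, also of the membrane arm, stood at 30.0, 47.9 and 29.9 CPM and then at 33.7, 31.2 and 31.0 CPM. Ndufa11 stood at 30.0, 45.7 and 32.1 CPM and then at 42.2, 39.4 and 35.6 CPM. Ndufv3, of the NADH-binding module, stood at 26.9, 43.7 and 31.3 CPM and then at 36.1, 41.6 and 39.6 CPM. In each of them the VC- library of replicate 1 was the highest of the 6, and their differences with vitamin C were -0.34 (SE 0.29), -0.32 (SE 0.26) and -0.27 (SE 0.26).

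Core subunits were on both sides of 0. Ndufs1, which carries iron-sulfur clusters of the NADH arm, was at 140, 119 and 99.4 CPM and then at 93.6, 75.9 and 84.7 CPM. Vitamin C went with a lower value in replicate 1 and a higher one in replicate 2, for a difference of -0.05 (SE 0.33). Ndufv1, the flavin-binding subunit, differed by 0.08 (SE 0.23), and Ndufs3, of the quinone arm, by 0.00 (SE 0.25). Ndufa9 (0.14, SE 0.42) was among the 5 members higher in both replicates, with Ndufa12, Ndufb3, Uqcrc2 and Atp5sl.

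**Figure D2:**
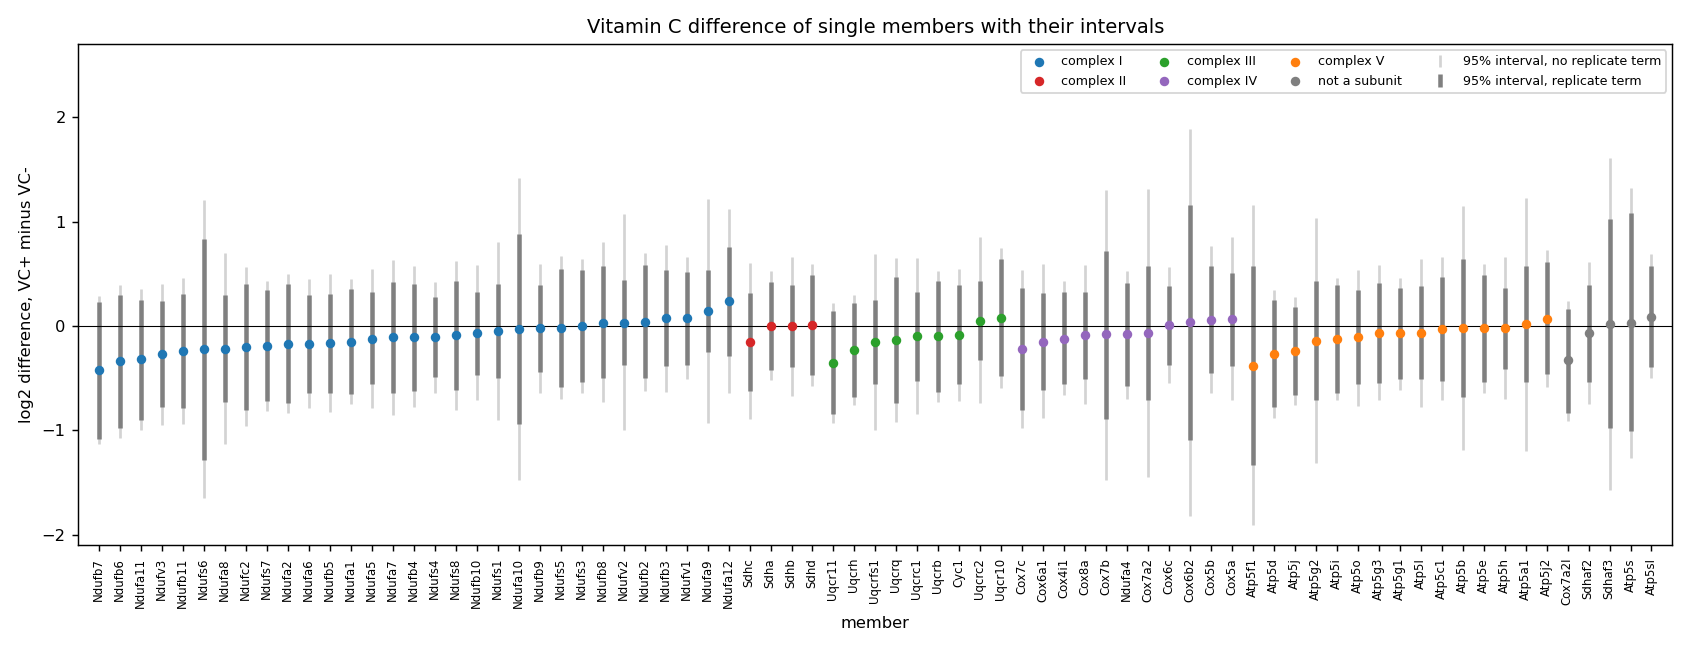
Log2 difference VC+ minus VC- of the members named on the x axis (points, by complex), with the 95% interval of the limma fit without a replicate term (light) and with one (dark). Every dark interval and every light one crosses 0, and Ndufb7 is the lowest point at -0.42.

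Complex II, which is also the succinate dehydrogenase of the citric acid cycle, had a median of 0.00. Sdha, its flavoprotein, was at 193, 190 and 178 CPM and then at 192, 163 and 175 CPM. It was lower with vitamin C in replicate 1 and higher in replicate 2, for a difference of 0.00 (SE 0.21). Sdhb (iron-sulfur subunit) and Sdhd (membrane anchor) lay within 0.01 of 0, and Sdhc, the other anchor, differed by -0.15 (SE 0.29). All 4 genes had opposite signs in the replicates.

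For complex III the median was -0.10, made up of -0.23 in the first replicate and 0.04 in the second. Uqcr11, a small subunit, was at 57.6, 80.6 and 52.5 CPM and then at 65.8, 68.9 and 64.6 CPM. Its VC+ values lay below the VC- values, and its difference was -0.35 (SE 0.22, limma adjusted p 1.0). Uqcrh, the hinge protein that binds cytochrome c1, differed by -0.23 (SE 0.21) and was lower in both replicates. Of the subunits that carry redox groups, Cyc1, the cytochrome c1 itself, differed by -0.09 (SE 0.25) and Uqcrfs1, the Rieske iron-sulfur protein, by -0.15 (SE 0.33). The core proteins Uqcrc1 and Uqcrc2 differed by -0.10 (SE 0.29) and 0.05 (SE 0.31).

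Complex IV, cytochrome c oxidase, had a median of -0.08. None of its 11 members had VC+ and VC- values apart, where 7.82% of all genes were apart and lower and 8.15% apart and higher. In so few members this count does not set the complex apart. Cox4i1, the common form of the subunit that regulates the enzyme, was at 172, 210 and 186 CPM and then at 184, 177 and 171 CPM, a difference of -0.12 (SE 0.21). Cox7c had the lowest value of the complex (-0.22, SE 0.30) and Cox5a the highest (0.07, SE 0.30). Ndufa4, once counted with complex I and now with complex IV, differed by -0.08 (SE 0.24).

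For complex V, the ATP synthase, the median was -0.07, from -0.28 in the first replicate and 0.11 in the second. Atp5b, the catalytic beta subunit, was at 1130, 982 and 895 CPM and then at 795, 575 and 614 CPM. Replicate 1 stood above replicate 2 in each group, and the difference with vitamin C was -0.02 (SE 0.46). Atp5a1, the alpha subunit, differed by 0.02 (SE 0.48). Atp5j (coupling factor 6 of the stalk) was at 55.1, 59.6 and 46.8 CPM and then at 48.1, 54.7 and 50.0 CPM, with both VC+ values below both VC- values and a difference of -0.24 (SE 0.20). The 3 genes Atp5g1, Atp5g2 and Atp5g3, which encode the same membrane-ring c subunit, differed by -0.07, -0.14 and -0.07.

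The second question was how the chain differs between stem cells and cells differentiated without vitamin C. Again 0 of 76 passed in limma, which called 0.0% of all genes (unadjusted p under 0.05 for 0 members and 382 genes). In DESeq2 without a replicate term 0 of 76 passed, against 0.549% of genes (63), so the count of 0 is near the background of those fits. With the replicate term DESeq2 called 0 of 76 members and 455 of the 11823 genes tested, a larger background. None of these counts shows that the members were unchanged. The member median was 0.06 (all genes 0.01), from 0.14 in the first replicate and -0.03 in the second. Values were lower in both replicates for 13 members and higher in both for 19, against 29.5% and 28.6% of all genes. Groups did not overlap for 3 lower members (13.2% of all genes) and 9 higher ones (13.8%).

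By complex, the medians were 0.12 for complex I, 0.06 for complexes II and III, -0.04 for complex IV and 0.00 for complex V. Complex IV stood at 0.13 in the first replicate and -0.24 in the second, so its replicates lay on opposite sides of 0. The 25 accessory subunits of complex I had a median of 0.19, with 11 higher and 1 lower in both replicates. For the 7 core subunits the median was 0.01, with 0 higher and 2 lower. By replicate the accessory medians were 0.23 and 0.01, and the core medians 0.03 and -0.12. This comparison shares the VC- libraries with the first, so a high VC- value lowers the first difference and raises this one. The 2 are not independent.

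The 3 members whose values were lower without overlap were Cox6b2, Ndufb4 and Sdha. Cox6b2, the testis isoform of a complex IV subunit, was at 3.66, 0.93 and 0.574 CPM and then at 4.80, 1.67 and 2.53 CPM. Both stem cell values lay above all 4 differentiated ones. The difference was -1.41 (SE 0.73, limma adjusted p 1.0) and rested on few reads, 29 and 8 in the D0 and VC- libraries of replicate 1. Ndufb4, an accessory subunit of the complex I membrane arm, was at 104, 62.0 and 50.0 CPM and then at 73.1, 49.4 and 52.6 CPM. Both stem cell values again lay above all 4 differentiated ones, and the difference was -0.65 (SE 0.26, limma p 0.0559 and adjusted p 1.0). RefSeq names 7 pseudogenes and 4 further genes after Ndufb4, and reads of such copies may be split or shared with it.

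Ndufb7 was the highest member in this comparison, at 0.54 (SE 0.28), with 0.99 in replicate 1 and 0.10 in replicate 2. Its VC- values also enter the first comparison, where it was the lowest. Ndufv3 had 0.45 (SE 0.26) and Atp5i, the e subunit of the synthase membrane part, 0.26 (SE 0.23). Atp5i was at 60.0, 83.2 and 62.0 CPM and then at 64.5, 66.6 and 75.2 CPM, with both VC- values above both D0 values. Atp5b and Atp5a1 had lower values in VC- than in D0 in both replicates, with differences of -0.33 (SE 0.46) and -0.30 (SE 0.48). Their D0 and VC- values overlapped, since the D0 library of replicate 2 lay below the VC- library of replicate 1.

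**Figure D3:**
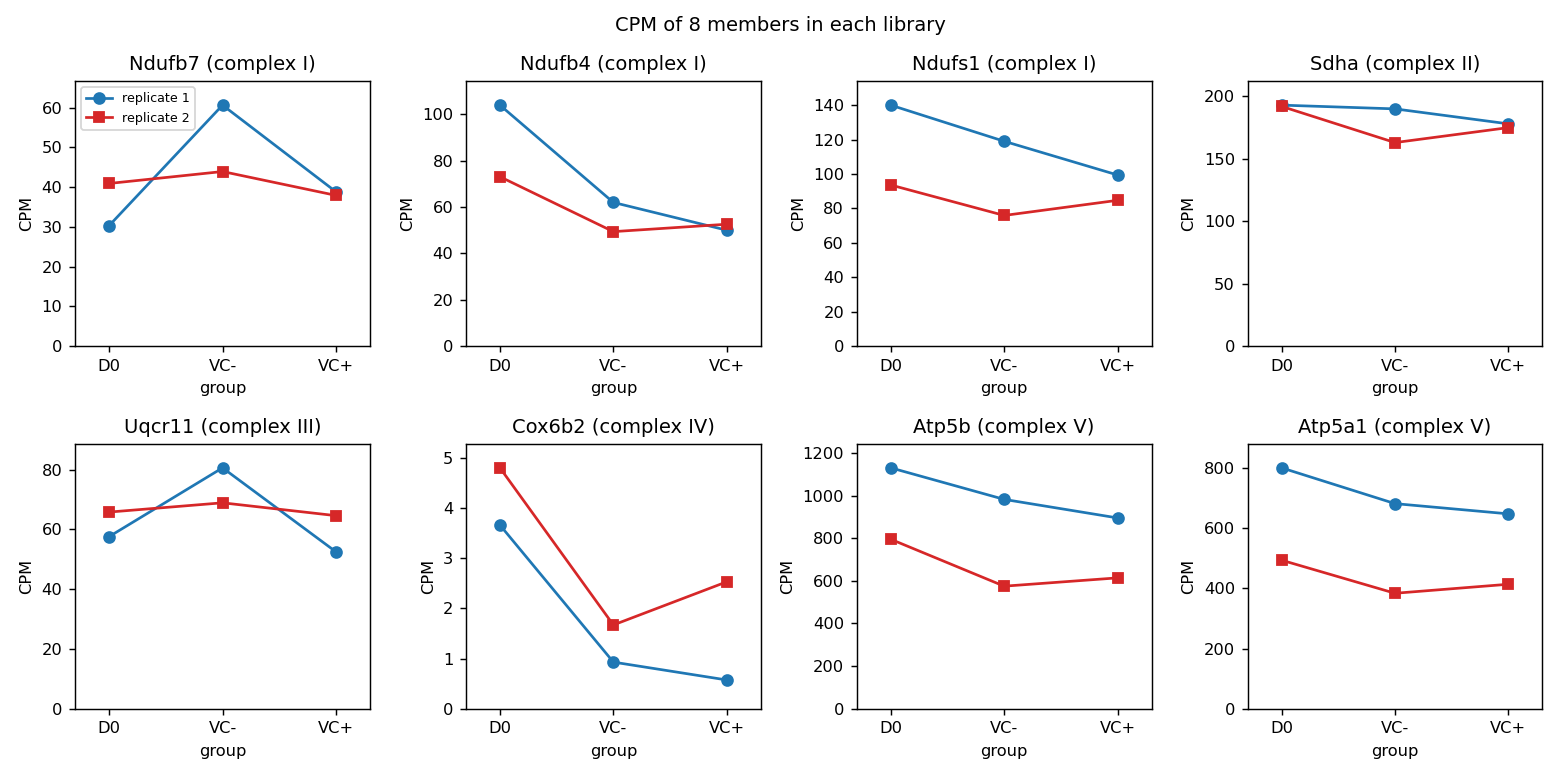
CPM (y axis, from 0) of 8 members in each library by group (x axis), with replicate 1 as blue circles and replicate 2 as red squares, and no error bars. Ndufb4 and Cox6b2 were highest in D0 in both replicates, Ndufb7 and Uqcr11 peaked in the VC- library of replicate 1, and Atp5b and Atp5a1 stood higher in replicate 1 in every group.

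The third comparison, stem cells against cells differentiated with vitamin C, shares the D0 libraries with the second and the VC+ libraries with the first, so its values are set beside theirs only. In limma 0 of 76 passed (0.0% of all genes called), with 1 member and 507 genes at an unadjusted p under 0.05. In DESeq2 without a replicate term 0 of 76 passed, against 1.09% of genes (133). With the term 0 of 76 passed, against 767 of the 11823 genes tested. The member median was -0.01, with 26 members lower in both replicates and 16 higher, against 29.0% and 28.6% of all genes. The 1 member was Ndufb4, at -0.76 (SE 0.26, limma p 0.0340 and adjusted p 1.0). Complex medians were 0.06 for I, 0.07 for II, -0.11 for III, -0.11 for IV and -0.07 for V.

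A difference between the replicates ran through all complexes. With a term for replicate in the limma fit over all groups, a test added after the data were seen, 63 of 76 members were lower in replicate 2 and the member median was -0.25, while 50.7% of all genes were lower and their median was -0.01. The replicate term passed an adjusted p of 0.05 for 7 members, all lower in replicate 2, where 7.7% of all genes were called lower. In either direction the term called 2971 of the 11823 genes tested, a larger share than that of the members. So the share of members called lower was near the background, and the share that was lower, called or not, was above it. By complex the medians were -0.25, -0.23, -0.23, -0.30 and -0.27 for I to V. Most lists of other mitochondrial genes, described below, had like medians. They were -0.29 for mitochondrial ribosomal proteins (57 of 67 lower in replicate 2) and -0.21 for assembly factors (25 of 32). Medians were -0.31 for the citric acid cycle and pyruvate dehydrogenase, -0.28 for import, -0.26 for coenzyme Q synthesis and -0.34 for biogenesis regulators. Mobile carriers (0.00) and HIF-linked genes (0.12) were not lower. So the shift was not particular to the chain.

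The 7 members came from 4 complexes. In complex I, Ndufa9, which lies near the quinone site, stood at -0.69 (SE 0.12, limma adjusted p 0.0211), and the core subunit Ndufv2 stood at -0.65 (SE 0.13, adjusted p 0.0258). Uqcrfs1 of complex III stood at -0.49 (SE 0.13, limma adjusted p 0.0488) and Cox7a2 of complex IV at -0.81 (SE 0.20, adjusted p 0.0468). Atp5a1 and Atp5g2 of complex V stood at -0.72 and -0.70 (SE 0.18 each, limma adjusted p 0.0434 and 0.0482). For Atp5a1 the CPM were 801, 682 and 648 in replicate 1 and 494, 384 and 414 in replicate 2, so the 2 sets did not overlap.

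The summed CPM of the 76 members were 7145, 7402 and 6403 in replicate 1 and 5825, 5181 and 5423 in replicate 2. In replicate 1 the VC- library was the highest of the 3 for 48 members (63.2%, against 29.9% of all genes tested), and for 23 of 32 in complex I. In replicate 2 it was the highest for 19 (25.0%, against 24.0%). The VC+ library was the highest for 5 members in replicate 1 (6.58%, against 30.0% of all genes tested). In replicate 2 it was the highest for 24 (31.6%, against 34.6%).

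**Figure D4:**
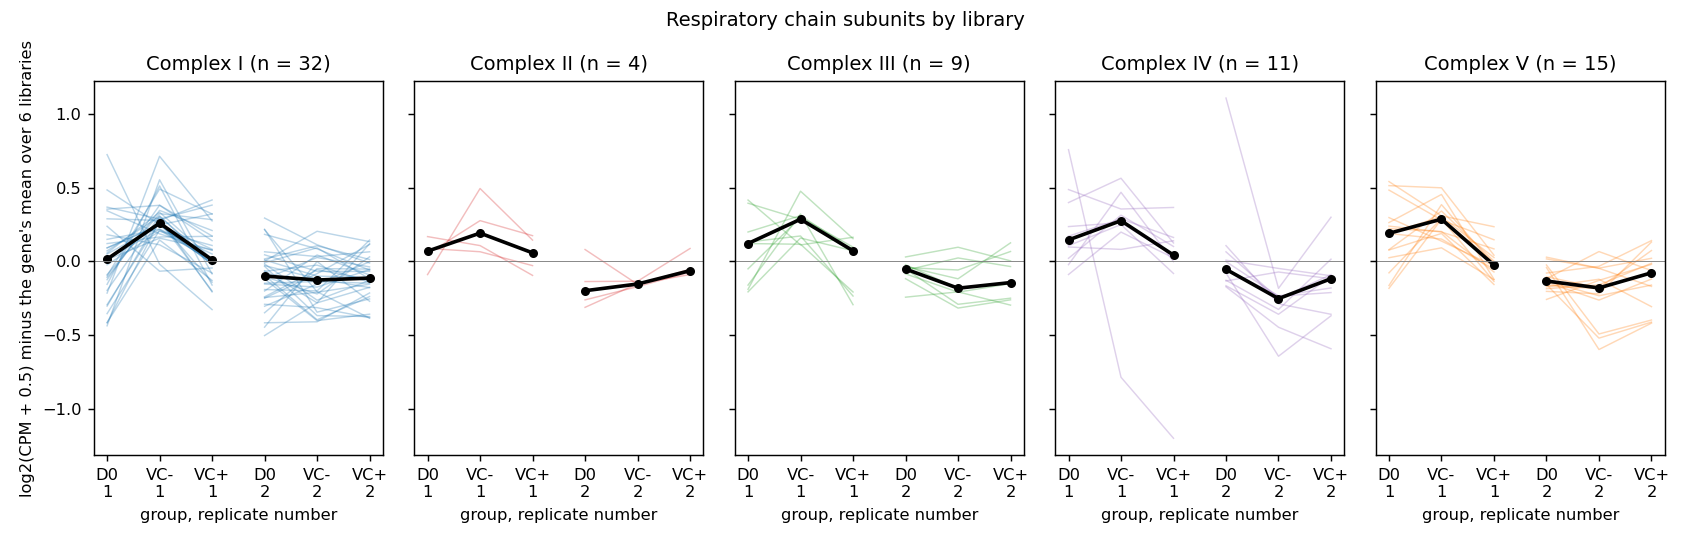
Subunits of each complex in the 6 libraries, as log2(CPM + 0.5) minus the gene's own mean over the libraries (y axis), with a thin line for each subunit and the median in black. In replicate 1 the VC- library has the highest median in all 5 complexes, and the medians of replicate 2 lie below those of replicate 1 in each group.

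Cell type markers moved with the replicate as well. The 14 microglia and macrophage markers summed to 5.454 to 6.053 CPM in replicate 1, where Itgam was at 0 in all 3 libraries, and to 399.4 to 954.3 CPM in replicate 2, where none was at 0. The 8 fibroblast and pericyte markers summed to 162.2 to 818.2 CPM in replicate 1 and to 3962 to 9007 CPM in replicate 2. The 12 oligodendrocyte markers summed to 2273, 12830 and 9197 CPM in replicate 1 and to 637.0, 837.9 and 699.0 CPM in replicate 2, where Mobp was at 0 in the D0 and VC+ libraries. The 10 neuron markers summed to 552.2, 669.9 and 525.5 CPM in replicate 1 and to 527.8, 482.1 and 469.7 CPM in replicate 2, with none at 0. In replicate 1 the VC- library was the highest of the 3 for 9 of the 10 neuron markers, and all 10 were lower with vitamin C. Within replicate 1 the fibroblast, oligodendrocyte and neuron sums were highest in the VC- library, and the microglia sum was not. VC- was the highest there for 7 of the 12 oligodendrocyte markers and for 48 of the 76 members. In replicate 2 the oligodendrocyte and microglia sums were highest in VC-, while the neuron and fibroblast sums were highest in D0. There VC- was the highest for 19 of the 76 members. The 9 astrocyte markers summed to 1695, 1853 and 5160 CPM in replicate 1 and to 2793, 2882 and 7117 CPM in replicate 2, highest in VC+ in both. Single markers were mixed: VC+ was the highest of the replicate for 5 of the 9 in each. Their differences between VC+ and VC- ran from -0.39 (Glul) to 2.98 (Gfap). The part of these cells in the members' values was not tested, and replicate number, day label, depth and cell makeup cannot be told apart.

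Levels near the floor limit some members. Ndufa10 stood between 1.51 and 2.52 CPM, Atp5f1 between 1.03 and 2.09 CPM and Sdhaf3 between 1.12 and 2.77 CPM in every library. Ndufa10 has a near copy, Ndufa10l1, in RefSeq, and Atp5f1 has 3 pseudogenes there. RefSeq names a pseudogene or a further gene after 40 of the 76 members, so their values depend on how the authors' counting treated reads that fit several places.

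Differences with vitamin C were set side by side for members with and without each promoter string. The 23 members with the NRF1 string had a median of -0.07 and the 43 without it -0.08. For the ETS string the medians were -0.09 with it (21 members) and -0.08 without (45). For YY1 they were -0.12 (14 members) and -0.07 (52). For SP1 they were -0.12 (28 members) and -0.07 (38), and in replicate 2 they were -0.03 and 0.10. These are descriptions without a test.

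Genes that serve the chain were read from lists fixed beside the members. Of the 32 assembly factors listed, 0 passed in limma in any comparison, and the median with vitamin C was 0.03. Since limma called 0.0% of all genes in each comparison, such counts of 0 do not set a list apart. Coenzyme Q synthesis (11 genes, median -0.03), mitochondrial import (18, 0.01), mitochondrial ribosomal proteins (67, -0.01) and regulators of mitochondrial biogenesis (16, 0.02) had 0 passing as well. Tfam, which packages and transcribes mitochondrial DNA, differed by -0.07 (SE 0.29) with vitamin C, and Ppargc1a, a coactivator of mitochondrial genes, by 0.56 (SE 0.45). Both were chosen after their values were seen.

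The 8 mobile carriers and other electron donors had a median of 0.04 with vitamin C, and 0 passed in limma (0.0% of all genes). Cytochrome c (Cycs) differed by 0.09 (SE 0.44) and Etfa, of the electron transfer flavoprotein, by 0.03 (SE 0.23). The highest of the 8 was Prodh, proline dehydrogenase, which reduces coenzyme Q. It was at 6.43, 9.42 and 47.6 CPM and then at 21.5, 17.8 and 71.1 CPM. Both VC+ values lay above the other 4, and the difference between VC+ and VC- was 2.12 (SE 0.66, limma adjusted p 1.0), which passed in DESeq2 with the replicate term (adjusted p 0.000234). Of the 18 genes of the citric acid cycle and pyruvate dehydrogenase, whose median was 0.00, the highest was Ogdh, of the 2-oxoglutarate dehydrogenase complex. It was at 145, 84.9 and 171 CPM and then at 96.7, 85.2 and 193 CPM, a difference of 1.09 (SE 0.26) that did not pass in DESeq2 with the replicate term (adjusted p 0.169). Gpd2, the mitochondrial glycerol phosphate dehydrogenase, differed by -1.16 (SE 0.35, limma adjusted p 1.0) between VC- and D0. Prodh, Ogdh and Gpd2 were chosen after their values were seen.

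Genes that link HIF and mitochondria include targets that act on pyruvate use and mitophagy. Of 13 on the list, 11 were present, and their median was -0.32 between VC+ and VC- and 0.67 between VC- and D0. By replicate the medians were -0.09 and -0.58 for VC+ against VC-, and 0.51 and 0.79 for VC- against D0. In limma 0 of 11 passed in either comparison, against 0.0% of all genes. With the replicate term in DESeq2, Ldha, lactate dehydrogenase A, which turns pyruvate to lactate, passed for VC+ against VC- (adjusted p 2.74e-10). In that fit 1 of 11 passed for VC- against D0 and 2 of 11 for VC+ against D0. Of the 11823 genes tested, 455 and 767 passed there. Ldha stood at 235, 316 and 80.2 CPM and then at 297, 437 and 122 CPM, a difference of -1.90 (SE 0.33, limma adjusted p 1.0), with both VC+ values below the other 4. Bnip3, a mitophagy receptor, was at 20.6, 45.1 and 26.6 CPM and then at 18.7, 37.3 and 22.7 CPM, for -0.73 (SE 0.25, limma adjusted p 1.0) with vitamin C.

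Bnip3l, also a mitophagy receptor, differed by -0.68 (SE 0.23) and Egln3, a HIF prolyl hydroxylase, by -1.11 (SE 1.08). Pdk1, which inhibits pyruvate dehydrogenase, differed by -0.10 (SE 0.35), Mxi1, a Myc antagonist, by -0.32 (SE 0.36) and Higd1a, a small partner of the chain, by -0.44 (SE 0.25). Lonp1, the matrix protease, differed by -0.13 (SE 0.24), Hif1a itself by -0.04 (SE 0.29) and Slc2a1, the glucose transporter, by 0.40 (SE 0.90). Ndufa4l2, the paralog of Ndufa4 left out of the members, was at 0.504, 1.05 and 1.82 CPM and then at 0.591, 1.18 and 1.87 CPM, a difference of 0.54 (SE 0.59) near the floor.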

How the data were processed

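The deposited unit is CPM per gene, scaled by the authors. The submitters' processing notes name STAR 2.5.1, edgeR 3.12.1 and the rn5 build, without saying which step each served. The counting tool, the gene annotation and any filter are not given in the sources used here. RNA libraries used a TruSeq kit, per the labels' protocols. The 6 RNA-seq libraries were used, and 18 samples of other assays were not analysed here.

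All values (100%) were whole multiples of 1 step per library (relative tolerance 1e-06), so reads were recovered by division. The listed genes hold 60.2% to 67.7% of the authors' scaling total. A gene had to reach 1 CPM in 2 or more libraries (11823 did). Values of log2(CPM + 0.5) were fitted with limma 3.58.1 (R 4.3.3), using its intensity trend and two-sided tests. The 3 groups shared 1 fit (3 residual degrees of freedom, 2 with a replicate term), and calls needed a Benjamini-Hochberg adjusted p under 0.05. Such fold changes understate the change of low genes. edgeR 4.0.16 and DESeq2 1.42.0 were run on recovered reads, and the code was tested on simulated counts.

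VC+ and VC- libraries share a replicate number and a D4 or D5 label, and their replicate differences correlated at 0.914 over 11823 genes, so the replicate block is given beside that comparison. D0 libraries share only the number. Members and lists were chosen with earlier results of these data known. Members named were, by complex, up to 4 (VC+ against VC-) and 2 (VC- against D0) of smallest p with groups apart, and a fixed panel, of which some are not reported here. Outside the members the rule took each listed HIF-linked gene and the 3 highest genes of other lists; genes named beyond it are said to have been chosen later, or stand for a count, a highest or lowest value, a role or a copy. Other settings were pseudocounts of 0.1 and 2, other filters (none, at least 5 CPM) and scalings, 2 groups per fit, no trend, and each library left out. Promoter sequences are from RefSeq (GRCr8), with no coordinates of the rn5 files. All 76 members matched a RefSeq gene, 17 of them under an older symbol.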

Additional observations from a re-analysis of the deposited data

How the results depend on the processing

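No member named passed under any setting run on all 6 libraries. For fits with 1 library left out, calls are not given here. DESeq2, run on all genes listed, called 6, 63 and 133 genes for VC+ against VC-, VC- against D0 and VC+ against D0. With the replicate block it called 32, 455 and 768, where limma called 0. With the replicate block limma and edgeR called 0 members as well. Replicate differences of D0 correlated with those of VC- at 0.73 and of VC+ at 0.688. The median of complex II for VC- against D0 was 0.13 when rescaled to the sum of the genes listed. Counting Ndufa4 with complex I, or leaving out tissue isoforms, moved no median by more than its replicate spread. Signs held under all settings for 10, 11 and 16 of 44 named members in the 3 comparisons.

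With 1 library left out, medians ranged as follows, the lone library being assumed to vary like the others. For VC+ against VC-, all members ran from -0.28 (without VC- replicate 2) to 0.13 (without VC- replicate 1), complex I from -0.27 to 0.08, II from -0.17 to 0.15, III from -0.33 to 0.16, IV from -0.33 to 0.17 and V from -0.30 to 0.15. For VC- against D0, all members ran from -0.12 to 0.26, I from -0.05 to 0.30, II from -0.11 to 0.23, III from -0.10 to 0.24, IV from -0.34 to 0.23 and V from -0.17 to 0.21. For VC+ against D0, all members ran from -0.12 to 0.06, I from -0.01 to 0.06, II from -0.06 to 0.22, III from -0.19 to 0.00, IV from -0.20 to 0.01 and V from -0.24 to 0.08. So each of these medians, except that of complex III for VC+ against D0, took both signs. Depth limits Ndufa10, Atp5f1, Sdhaf3 and Cox6b2 most, at a few CPM.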
